A study of Mus musculus with 12 samples.

Results

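The genes of sterol and fatty acid synthesis were followed through the conversion of mouse hepatocytes toward biliary cells. They were chosen by symbol as 31 of the 53599 rows of a gene count table: 18 enzymes that build cholesterol, 6 genes of sterol control and transport, and 7 genes of fatty acid synthesis. All 31 passed the filter on low counts and were among the 16210 genes tested. RNA was sequenced from 12 libraries of sorted liver cells, 3 in each of 4 groups. Every group came from wild-type mice that had received AAV8-TBG-Cre, in which the hepatocyte promoter TBG drives Cre so that hepatocytes and their descendants carry EGFP, and that ate 0.1% DDC, a porphyrinogenic compound that injures bile ducts, for 8 weeks. The early group was EGFP+ Cd24- Epcam-, the intermediate group EGFP+ Cd24+ Epcam- and the full group EGFP+ Cd24+ Epcam+, while the group of biliary epithelial cells (BEC) was EGFP- Epcam+. All groups had been fed DDC, so no level here is that of an uninjured liver, and the labels do not say whether libraries of a group came from separate mice, so that p-values measure the spread between these libraries.

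Cholesterol is built from cytosolic acetyl-CoA through mevalonate, squalene and lanosterol, and fatty acids are built from the same acetyl-CoA by Acly, the acetyl-CoA carboxylases and Fasn, then elongated by Elovl6 and desaturated by the Scd enzymes. Transcription of both pathways is driven by the SREBP factors, with Srebf2 directed mainly at sterol genes and Srebf1 mainly at fatty acid genes. Scap escorts the factors to the Golgi for cleavage when sterols are low, the Insig proteins hold them in the endoplasmic reticulum when sterols are high, and the liver is a main site of both pathways in the body.

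Total counts ran from 15112893 to 19731887 per library. Levels are CPM (counts scaled to a common library total) on libraries scaled by TMM, a trimmed mean of ratios, and 3 counts corresponded to between 0.128 and 0.273 CPM. Hepatocyte markers (7 genes) summed to between 92746 and 96735 CPM in early, 14324 to 18700 in intermediate, 3156 to 4136 in full and 1965 to 2589 in BEC. Biliary markers (7 genes) rose from between 954 and 1913 CPM in early to between 14417 and 18125 in BEC. Most of these sums was Spp1, at 868 to 1811 CPM in early and 10889 to 14481 in BEC. Epcam and Cd24a, also in this list, encode markers by which the cells were sorted. The hepatocyte list moved in the same direction as most members at the first step (intermediate against early, median -2.44 on the log2 scale) and at the second (full against intermediate, -2.29). Between BEC and full its median was -0.52, where that of the 31 members was 0.0539, and its part in the results below was not tested. In sorted bulk samples, fewer cells of a type and less RNA per cell cannot be told apart. Endothelial markers (4 genes) summed to between 12.8 and 17.2 CPM in early and between 1.49 and 3.76 in full. Stellate and fibroblast markers (6 genes) went from between 67.1 and 221 CPM in early to between 28.5 and 52.9 in full and 55.6 and 96.2 in BEC. Erythroid markers (3 genes) summed to between 18.7 and 32.9 CPM in early, 2.26 and 3.17 in intermediate and 0.213 and 0.787 in full. Nearly all of the erythroid sum was Alas2, with means of 24.3, 2.47 and 0.571 CPM in these groups. The globin genes Hbb-bs and Hba-a1 reached at most 0.237 CPM in any library, and only 1 of the 3 markers passed the filter. The part of these lists in the results was not tested. The 4 adipocyte markers summed to at most 1.58 CPM in any library, with Plin1 at 0 in early, intermediate and BEC. The mitochondrial share of counts also moved by group, from between 5.45% and 11.4% in early (highest in replicate 2) to between 3.99% and 4.75% in intermediate, 2.196% and 2.48% in full and 2.58% and 3.43% in BEC, and its part in the results was not tested.

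The promoters of 6 members are shown first, 5 that were lower in intermediate than in early and Srebf2, which was not called there, since SREBP factors are known to act at promoters together with NF-Y and Sp1. Sequences are the 250 bases before the transcription start from RefSeq on GRCm38.p6, 5′ to 3′ on the gene's strand, and 25 of the 31 members had an entry in that table. Capitals mark matches, on either strand, to TCACNCCAC (a sterol regulatory element), CCAAT (the NF-Y box), GGGCGG (the Sp1 box) and CACGTG (an E-box). Hmgcs1 (HMG-CoA synthase), Idi1 (isopentenyl diphosphate isomerase) and Msmo1 (a methylsterol oxidase) stand for the sterol enzymes, Insig1 and Srebf2 for the control genes and Fasn for fatty acid synthesis.
Hmgcs1, chr13:119690101-119690350, plus strand: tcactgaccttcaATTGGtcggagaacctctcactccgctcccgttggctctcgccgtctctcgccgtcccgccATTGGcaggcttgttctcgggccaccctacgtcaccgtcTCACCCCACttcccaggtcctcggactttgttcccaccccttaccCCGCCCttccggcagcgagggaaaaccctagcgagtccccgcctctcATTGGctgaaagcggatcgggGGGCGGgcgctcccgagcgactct
Idi1, chr13:8885356-8885605, plus strand: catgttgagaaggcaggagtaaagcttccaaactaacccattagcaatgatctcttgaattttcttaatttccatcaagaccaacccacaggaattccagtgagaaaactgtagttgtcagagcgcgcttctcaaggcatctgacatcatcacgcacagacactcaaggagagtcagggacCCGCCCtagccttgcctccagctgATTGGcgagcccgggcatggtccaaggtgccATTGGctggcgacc
Msmo1, chr8:64733579-64733828, minus strand: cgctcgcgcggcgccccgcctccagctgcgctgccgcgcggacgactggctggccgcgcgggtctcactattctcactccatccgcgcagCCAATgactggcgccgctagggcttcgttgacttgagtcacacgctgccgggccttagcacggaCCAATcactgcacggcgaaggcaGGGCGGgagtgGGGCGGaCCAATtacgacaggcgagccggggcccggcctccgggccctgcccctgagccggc
Insig1, chr5:28071162-28071411, plus strand: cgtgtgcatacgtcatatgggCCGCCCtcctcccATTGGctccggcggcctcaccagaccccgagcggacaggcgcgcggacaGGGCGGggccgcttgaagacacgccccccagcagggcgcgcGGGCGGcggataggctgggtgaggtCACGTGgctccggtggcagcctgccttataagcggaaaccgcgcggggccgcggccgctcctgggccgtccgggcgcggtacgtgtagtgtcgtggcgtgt
Fasn, chr11:120824548-120824797, minus strand: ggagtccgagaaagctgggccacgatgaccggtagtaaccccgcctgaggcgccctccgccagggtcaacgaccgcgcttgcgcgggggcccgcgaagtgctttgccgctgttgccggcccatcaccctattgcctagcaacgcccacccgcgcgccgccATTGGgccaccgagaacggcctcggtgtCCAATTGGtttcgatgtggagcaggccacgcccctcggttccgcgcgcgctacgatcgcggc
Srebf2, chr15:82147019-82147268, plus strand: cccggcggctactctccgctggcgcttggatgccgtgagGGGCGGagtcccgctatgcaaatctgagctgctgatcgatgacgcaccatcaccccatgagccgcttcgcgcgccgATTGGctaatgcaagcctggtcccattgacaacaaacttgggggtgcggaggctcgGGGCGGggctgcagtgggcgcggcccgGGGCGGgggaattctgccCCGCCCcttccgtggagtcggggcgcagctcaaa

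In windows of 300 bases (250 before and 50 after the start, any window of a gene counting), CCAAT was found for 14 of the 15 sterol enzymes in the table, 4 of 5 control genes and 3 of 5 fatty acid genes, against 41.1% of all 27025 genes. GGGCGG was found for 14 of 15, 5 of 5 and 1 of 5 of these, against 38.2% of all genes. In Fasn, 2 of the CCAAT matches lie on opposite strands and overlap. TCACNCCAC was found for Hmgcs1 alone among the 25 members, against 1.44% of all genes. CACGTG was found for Hsd17b7, Sc5d, Dhcr7, Insig1 and Scap, against 8.09% of all genes. A match is a description of letters in a window, and the absence of a match says nothing about binding.

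At the first step, from early to intermediate, all of the 18 listed sterol enzymes were lower. Of the 18 sterol enzymes 18 were called lower (adjusted p under 0.05, edgeR's quasi-likelihood test with Benjamini-Hochberg adjustment over all genes tested) and 0 higher, with a median log2 fold change of -1.85 and a range from -2.07 to -1.19. Among all genes tested, 25.7% were called lower and 28.7% higher, with a median of 0.06. In 18 of the 18 every intermediate library lay below every early one, as in 27.6% of all genes tested. Summed over the enzymes, the level was 3872, 4181 and 5754 CPM in early replicates 1 to 3 and 1034, 1278 and 1719 CPM in intermediate.

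The mevalonate enzymes (Acat2, Hmgcs1, Mvk, Pmvk, Mvd, Idi1 and Fdps) had a median of -2.01. Hmgcs1, which makes HMG-CoA, stood at 804, 827 and 1138 CPM in early and at 159, 220 and 307 CPM in intermediate. Each intermediate library lay below every early one (log2 fold change -2.01, SE 0.23, edgeR adjusted p 5.76e-06). Fdps, the farnesyl diphosphate synthase, had the largest change of this part of the pathway, from 21.7, 35.6 and 32.1 CPM to 5.28, 7.89 and 8.04 CPM (-2.07, SE 0.23, edgeR adjusted p 5.22e-06). Idi1 went from 154, 196 and 289 CPM to 29.0, 48.0 and 77.2 CPM, and Mvd, the mevalonate diphosphate decarboxylase, from 55.9, 67.3 and 84.1 CPM to 11.6, 18.1 and 21.3 CPM. In both genes replicate 1 was lowest and replicate 3 highest within each of these groups.

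From squalene to lanosterol, the median was -1.43, over Fdft1 (squalene synthase), Sqle (squalene epoxidase) and Lss (lanosterol synthase). Sqle had the smallest change of the sterol enzymes, from 241, 314 and 387 CPM in early to 94.0, 143 and 175 CPM in intermediate (-1.19, SE 0.21, edgeR adjusted p 0.000284). Lss, which closes the sterol rings, went from 152, 206 and 295 CPM to 51.2, 70.1 and 102 CPM (-1.54, SE 0.25, edgeR adjusted p 0.000166). The 8 enzymes between lanosterol and cholesterol lay close together, between -1.95 and -1.77. Msmo1 moved most among them, from 274, 338 and 436 CPM to 68.0, 84.9 and 118 CPM (-1.95, SE 0.24, edgeR adjusted p 1.37e-05). Cyp51, the lanosterol demethylase, went from 436, 412 and 564 CPM to 100, 112 and 174 CPM, Tm7sf2, a sterol reductase, from 98.5, 110 and 142 CPM to 25.6, 29.6 and 39.9 CPM, and Hsd17b7, a keto-reductase, from 90.8, 126 and 152 CPM to 22.6, 37.5 and 42.5 CPM. None of these ranges overlapped between the groups.

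**Figure D1:**
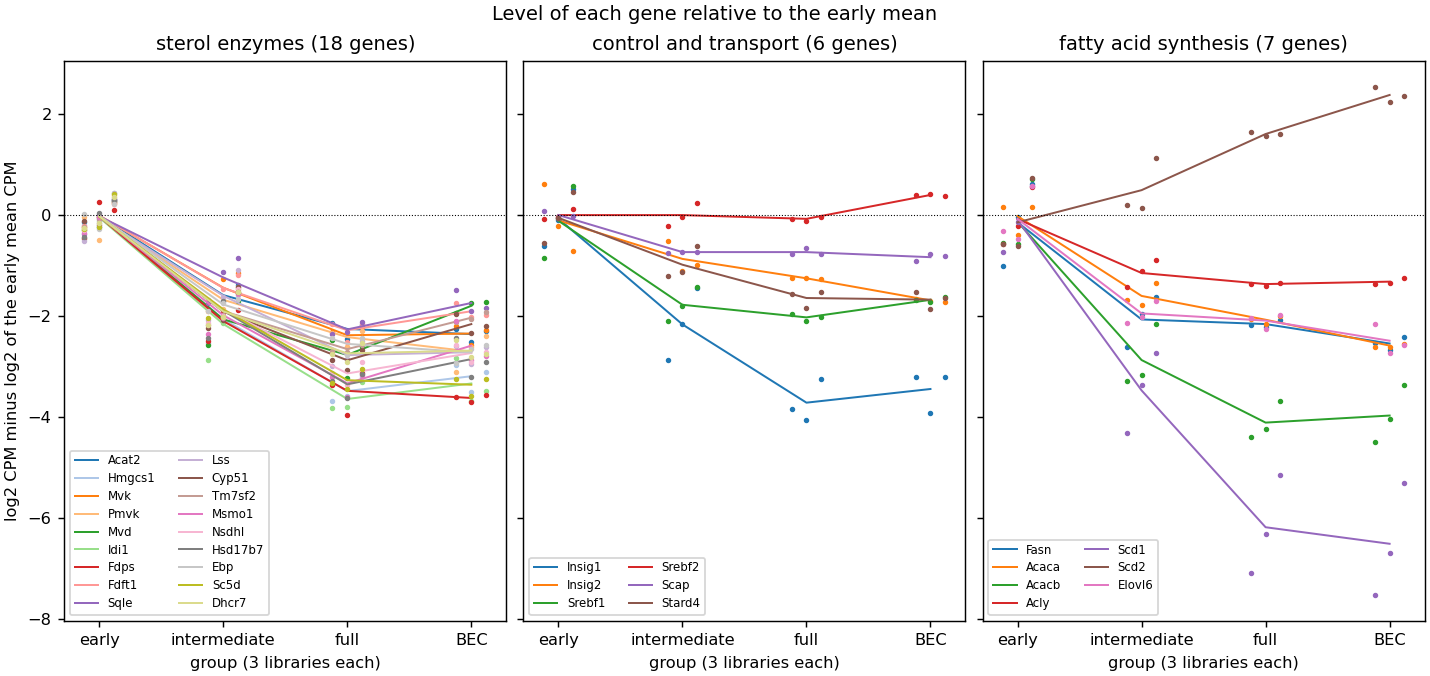
Level of each of the 31 genes in each library as log2 CPM minus the log2 of its early mean (vertical axis), by group (horizontal axis), with points for the 3 libraries of a group, in replicate order from left to right, and lines joining group means. The 18 sterol enzymes run down together to full, Srebf2 stays near 0 until BEC, and Scd1 and Scd2 part in opposite directions.

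Control genes divided at this step, with 5 of 6 called lower and 0 higher. Insig1, an SREBP target that retains the Scap complex, went from 356, 507 and 776 CPM in early to 74.1, 121 and 200 CPM in intermediate (log2 fold change -2.05, SE 0.36, edgeR adjusted p 0.000263). Srebf1 stood at 401, 695 and 1084 CPM in early and at 170, 207 and 269 CPM in intermediate (-1.75, SE 0.27, edgeR adjusted p 8.02e-05). Early libraries of both genes differed among themselves by over 2-fold, yet the groups did not overlap. Srebf2 was at 206, 212 and 235 CPM in early and at 188, 212 and 257 CPM in intermediate, overlapping ranges with a difference of 0.01 (SE 0.11, edgeR adjusted p 0.954). Scap fell by 0.74 (SE 0.08, edgeR adjusted p 2.58e-06) and Stard4, a cytosolic cholesterol carrier, fell by 0.96 on the log2 scale (SE 0.22, edgeR adjusted p 0.00187). Insig2 had the opposite order to Insig1 within early, at 206, 115 and 81.4 CPM, where Insig1 was lowest in replicate 1 and highest in replicate 3. It was called lower in intermediate, at 93.3, 62.4 and 67.5 CPM (-0.85, SE 0.25, edgeR adjusted p 0.0103), although the groups overlapped and the call was lost without early replicate 1 (-0.40, edgeR adjusted p 0.0575).

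Of the 7 fatty acid genes, 6 were called lower at the first step and 0 higher, with a median log2 fold change of -1.94. Scd1, the main stearoyl-CoA desaturase of hepatocytes, fell most of all members, from 2922, 4404 and 7195 CPM in early to 242, 471 and 724 CPM in intermediate (-3.34, SE 0.62, edgeR adjusted p 0.000466). Acacb, the acetyl-CoA carboxylase tied to mitochondria, went from 93.3, 91.6 and 225 CPM to 14.0, 15.2 and 30.4 CPM (-2.78, SE 0.40, edgeR adjusted p 4.99e-05). Acaca, the cytosolic carboxylase that feeds synthesis, went from 348, 235 and 346 CPM to 96.9, 90.1 and 121 CPM (-1.59, SE 0.15, edgeR adjusted p 7.76e-07). Both carboxylases were thus lower in every intermediate library than in any early one. Fasn, the fatty acid synthase, spanned 784, 1532 and 2426 CPM in early and 256, 407 and 511 CPM in intermediate (-2.01, SE 0.32, edgeR adjusted p 0.000125). Elovl6, the elongase acting on palmitate, went from 129, 116 and 238 CPM to 36.5, 39.8 and 49.5 CPM (-1.94, SE 0.24, edgeR adjusted p 1.30e-05). Acly, the ATP citrate lyase, changed least of the called genes, from 420, 534 and 920 CPM to 231, 288 and 335 CPM (-1.13, SE 0.22, edgeR adjusted p 0.000663).

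Scd2, a desaturase known from brain and other non-hepatic cells, was the exception among the 7. It stood at 59.4, 58.1 and 148 CPM in early and at 102, 96.7 and 194 CPM in intermediate, overlapping ranges that were not called (log2 fold change 0.57, SE 0.32, edgeR adjusted p 0.156). It was called higher without early replicate 3 (1.16, edgeR adjusted p 0.00175) and with the replicate number as a block (0.60, edgeR adjusted p 0.0458).

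At the second step, from intermediate to full, the 18 listed sterol enzymes were lower again, while part of the fatty acid genes was not called. All 18 sterol enzymes were again called lower and 0 higher, with a median log2 fold change of -1.04 and a range from -1.58 to -0.67, where 19.8% of all genes were called lower and 20.8% higher and their median was 0.01. In 17 of the 18, Mvd being the exception, every full library lay below every intermediate one, as in 27.0% of all genes tested. When the test asked for a change of more than 2-fold, 0 of the 18 were called at this step. Of the 7 fatty acid genes 3 were called lower and 1 higher, with a median of -0.24, and the difference between the 2 lists was not tested. Over both steps, 18 of 18 sterol enzymes, 2 of 6 control genes and 3 of 7 fatty acid genes were called lower at each, against 15.3% of all genes. Another 0 of 18, 3 of 6 and 3 of 7 were lower at the first step with no call at the second, against 9.28%.

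Idi1 fell most among the sterol enzymes at this step, to 14.9, 15.3 and 21.6 CPM in full (log2 fold change -1.58, SE 0.33, edgeR adjusted p 0.00187). Hsd17b7 reached 12.5, 9.94 and 13.8 CPM (-1.50, SE 0.26, edgeR adjusted p 0.000371) and Hmgcs1 72.2, 77.0 and 99.9 CPM (-1.46, SE 0.23, edgeR adjusted p 0.000172). Lss came to 27.4, 30.2 and 38.5 CPM (-1.22, SE 0.26, edgeR adjusted p 0.0018) and Sqle to 61.0, 63.3 and 71.8 CPM (-1.07, SE 0.21, edgeR adjusted p 0.00108). In these 5 genes every full library lay below every intermediate one. Fdps was at 2.89, 1.92 and 3.41 CPM, Msmo1 at 37.5, 28.5 and 38.7 CPM, Cyp51 at 63.8, 55.8 and 73.6 CPM and Tm7sf2 at 18.1, 17.7 and 19.7 CPM. Mvd reached 12.4, 7.40 and 11.3 CPM, where the first of these lay above the lowest intermediate library (-0.72, SE 0.23, edgeR adjusted p 0.023). Mvd was no longer called after dropping replicate 2 or 3 of intermediate, or full replicate 2 (from -0.68 to -0.53, edgeR adjusted p from 0.0694 to 0.110), and that of Pmvk (phosphomevalonate kinase, -0.74, edgeR adjusted p 0.015) without intermediate replicate 3 (-0.62, edgeR adjusted p 0.0661) or full replicate 2 (-0.65, edgeR adjusted p 0.066).

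Insig1 followed the sterol enzymes to 38.0, 32.8 and 57.4 CPM in full (log2 fold change -1.62, SE 0.36, edgeR adjusted p 0.00245). Stard4 was called lower as well (-0.68, SE 0.22, edgeR adjusted p 0.0226), though neither without intermediate replicate 3 (-0.48, edgeR adjusted p 0.112) nor without full replicate 2 (-0.58, edgeR adjusted p 0.0933). Srebf1, at 185, 170 and 179 CPM in full, had a difference of -0.27 (SE 0.26, edgeR adjusted p 0.433), and Srebf2, at 206, 201 and 213 CPM, one of -0.09 (SE 0.11, edgeR adjusted p 0.559). Both SREBP genes thus overlapped between intermediate and full. Scap had a difference of 0.00 (SE 0.08, edgeR adjusted p 0.994), and Insig2, at 56.5, 56.5 and 55.3 CPM, one of -0.41 (SE 0.25, edgeR adjusted p 0.215). Without early replicate 1, Insig2 was called lower at this step (-0.41, edgeR adjusted p 0.0378) and between BEC and full (-0.44, edgeR adjusted p 0.0459).

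Fasn, Acly and Elovl6 were not called at this step. Fasn stood at 347, 339 and 375 CPM in full, within the intermediate range (log2 fold change -0.15, SE 0.31, edgeR adjusted p 0.744). Acly was at 244, 235 and 247 CPM (-0.24, SE 0.22, edgeR adjusted p 0.425) and Elovl6 at 39.1, 33.8 and 40.6 CPM (-0.15, SE 0.24, edgeR adjusted p 0.651), each overlapping with intermediate. Scd1 fell again, to 35.7, 60.7 and 136 CPM (-2.63, SE 0.61, edgeR adjusted p 0.00347). Acacb reached 6.47, 7.18 and 10.6 CPM (-1.30, SE 0.41, edgeR adjusted p 0.0213) and Acaca 74.4, 69.2 and 77.0 CPM (-0.48, SE 0.14, edgeR adjusted p 0.0161). Scd2 rose to 275, 263 and 267 CPM, above every intermediate library (1.04, SE 0.32, edgeR adjusted p 0.0201). The calls of Acaca, Acacb and Scd2 each rested on single libraries. Acaca lost its call without intermediate replicate 3 (-0.35, edgeR adjusted p 0.0842) or full replicate 2 (-0.44, edgeR adjusted p 0.0656), Acacb without intermediate replicate 3, or replicate 1 or 2 of full (from -1.22 to -0.86, edgeR adjusted p from 0.0722 to 0.127), and Scd2 without intermediate replicate 1 (0.88, edgeR adjusted p 0.0717) or 2 (0.85, edgeR adjusted p 0.0919).

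**Figure D2:**
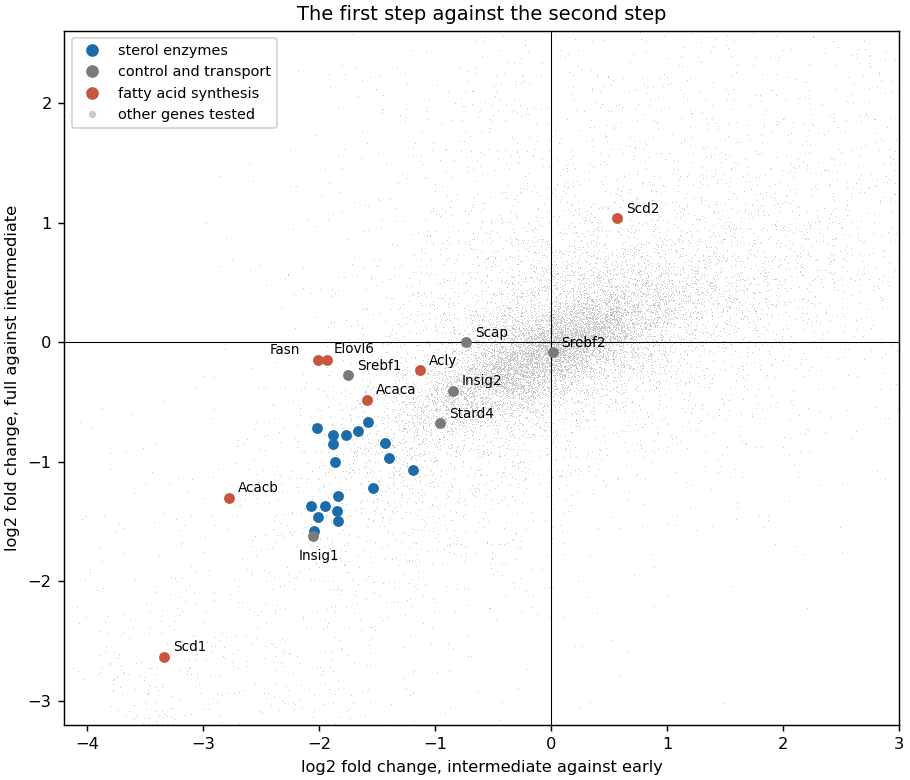
Log2 fold change of intermediate against early (horizontal) and of full against intermediate (vertical) for the 31 genes (large symbols by role) over all genes tested within the range drawn (grey points). Sterol enzymes lie between -1.58 and -0.67 at the second step, while Fasn, Elovl6, Acly and Srebf1 lie near 0.

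Whether a gene moved more at the first step than at the second was tested directly, as the difference of both log2 fold changes in the same fit, a contrast added after the data were seen. For a gene that fell, a negative difference means a larger fall at the first step, for Scd2 it means a smaller rise, and intermediate libraries enter both steps. It was called for Elovl6 (-1.79, SE 0.42, edgeR adjusted p 0.0107), Fasn (-1.87, SE 0.56, edgeR adjusted p 0.0371), Acaca (-1.11, SE 0.25, edgeR adjusted p 0.00904), Srebf1 (-1.48, SE 0.46, edgeR adjusted p 0.0449) and Scap (-0.74, SE 0.13, edgeR adjusted p 0.00211). Among the sterol enzymes it was called for 5 of 18, Ebp (a sterol isomerase), Tm7sf2, Acat2 (the cytosolic thiolase), Mvd and Dhcr7 (the last reductase of the pathway), between -1.30 and -0.91. Most of these calls depended on single libraries or the scaling. Of the 12 fits that each left out 1 library, the call was lost in 10 for Srebf1 (edgeR adjusted p up to 0.174), 8 each for Fasn (up to 0.152), Mvd (up to 0.167) and Dhcr7 (up to 0.193), 4 for Acat2 (up to 0.134), 2 each for Elovl6 (up to 0.0553), Ebp (up to 0.0662) and Tm7sf2 (up to 0.0891), and 1 for Acaca (0.066). Scap kept its call in the 12 fits, and Elovl6 alone of these 10 genes kept it with total counts in place of TMM, where Scap was at -0.27 (edgeR adjusted p 0.134). Over all genes tested, 5.64% had a negative and 10.8% a positive call. With the replicate block 5 fatty acid genes were called in place of 3. The block also added the sterol enzymes Pmvk (-0.91, edgeR adjusted p 0.0253) and Cyp51 (-0.90, edgeR adjusted p 0.0168). With total counts in place of TMM, 1 fatty acid gene and 0 sterol enzymes were called lower, and without intermediate replicate 2 there were 0 and 0, without intermediate replicate 1 there were 1 and 0.

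The comparison of BEC with full sets EGFP- against EGFP+ cells that both carry Epcam. Of the 31 members, 5 were called higher in BEC, 1 lower and 25 not called, where 10.7% of all genes were called higher and 10.6% lower, so that the members' count is near that of all genes. In 13 of the 31 the 2 groups of libraries did not overlap, in 10 of them with every BEC library above every full one. That order was found in 20.6% of all genes tested, and the share with the other order was not counted. The sterol enzymes had 4 of 18 called higher in BEC and 0 lower, with a median log2 fold change of 0.31 and a range from -0.26 to 0.94. These were Mvd, Cyp51, Tm7sf2 and Msmo1. All 18 had been called lower at both earlier steps, as had 2484 of the 16210 genes tested. Of those 2484 genes, 95 were called higher in BEC than in full. The full libraries enter both the second step and this comparison.

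Mvd was higher at 18.02, 20.7 and 20.9 CPM in BEC (log2 fold change 0.94, SE 0.23, edgeR adjusted p 0.00834). Msmo1 stood at 81.1, 47.5 and 50.7 CPM (0.78, SE 0.24, edgeR adjusted p 0.0342), Cyp51 at 121, 93.4 and 103 CPM (0.72, SE 0.19, edgeR adjusted p 0.0166) and Tm7sf2 at 26.7, 28.0 and 31.0 CPM (0.62, SE 0.16, edgeR adjusted p 0.0128). Every BEC library lay above every full library in 7 of the 18 sterol enzymes, these 4 among them, as in 20.6% of all genes tested. In the 4 genes every BEC library lay below every early one. The Mvd call alone was kept whichever single library was left out. Msmo1 lost its call without BEC replicate 1, its highest BEC library, or any 1 of the full libraries (from 0.49 to 0.85, edgeR adjusted p from 0.0584 to 0.188), Cyp51 without full replicate 1, full replicate 2 or BEC replicate 1 (from 0.61 to 0.71, edgeR adjusted p from 0.0534 to 0.0795), and Tm7sf2 without full replicate 2 (0.59, edgeR adjusted p 0.0512) or BEC replicate 3 (0.56, edgeR adjusted p 0.0519). The number of sterol enzymes called higher was 2 without full replicate 1, 1 without full replicate 2 and 2 without BEC replicate 1. With the replicate block it was 7, with Sqle (edgeR adjusted p 0.035), Nsdhl (edgeR adjusted p 0.0382) and Fdft1 (edgeR adjusted p 0.0451) added.

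The other 14 sterol enzymes were not called, with log2 fold changes on both sides of 0. Sqle was at 112, 83.8 and 87.9 CPM in BEC, above every full library (0.53 on the log2 scale, SE 0.21, edgeR adjusted p 0.0945), and was called without intermediate replicate 1 (0.53, edgeR adjusted p 0.036). Hmgcs1 was at 117, 81.6 and 107 CPM, Idi1 at 29.8, 16.4 and 19.0 CPM, Hsd17b7 at 22.5, 13.2 and 16.4 CPM and Lss at 36.2, 28.0 and 35.5 CPM, each overlapping with full. Fdps, at 2.46, 2.28 and 2.51 CPM, had a difference of -0.18 (SE 0.27, edgeR adjusted p 0.718).

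Srebf2 was the control gene called between these groups, at 287, 291 and 282 CPM in BEC (log2 fold change 0.47, SE 0.11, edgeR adjusted p 0.00534). Every BEC library lay above all 9 libraries of EGFP+ cells, and against early it was higher by 0.40 (SE 0.11, edgeR adjusted p 0.00418). Srebf1 reached 225, 219 and 236 CPM, above every full library without being called (0.35, SE 0.26, edgeR adjusted p 0.427). Insig1 was at 59.3, 36.1 and 58.7 CPM (0.27, SE 0.35, edgeR adjusted p 0.686), and Insig2 at 42.4, 41.2 and 40.7 CPM, below every full library without being called (-0.44, SE 0.25, edgeR adjusted p 0.271).

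Acaca was the only fatty acid gene called between BEC and full with all libraries in the fit, at 50.8, 50.7 and 53.0 CPM in BEC (log2 fold change -0.51, SE 0.14, edgeR adjusted p 0.0206). Dropping full replicate 1 or 3, or BEC replicate 1 or 2, ended the call (from -0.51 to -0.48, edgeR adjusted p from 0.0567 to 0.0731). Scd2 was higher in every BEC library, at 516, 414 and 453 CPM, though the difference missed the threshold (0.78, SE 0.32, edgeR adjusted p 0.110). A block on the replicate number (0.78, edgeR adjusted p 0.0243) or a fit that left out early replicate 3 (0.78, edgeR adjusted p 0.0175) gave a call. Fasn, at 271, 247 and 295 CPM, lay below every full library (-0.38, SE 0.31, edgeR adjusted p 0.472), Acly was at 243, 246 and 261 CPM, Elovl6 at 36.0, 24.2 and 26.8 CPM, Acacb at 6.02, 8.29 and 13.2 CPM and Scd1 at 26.1, 46.4 and 123 CPM. The last 4 of these overlapped with full.

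**Figure D3:**
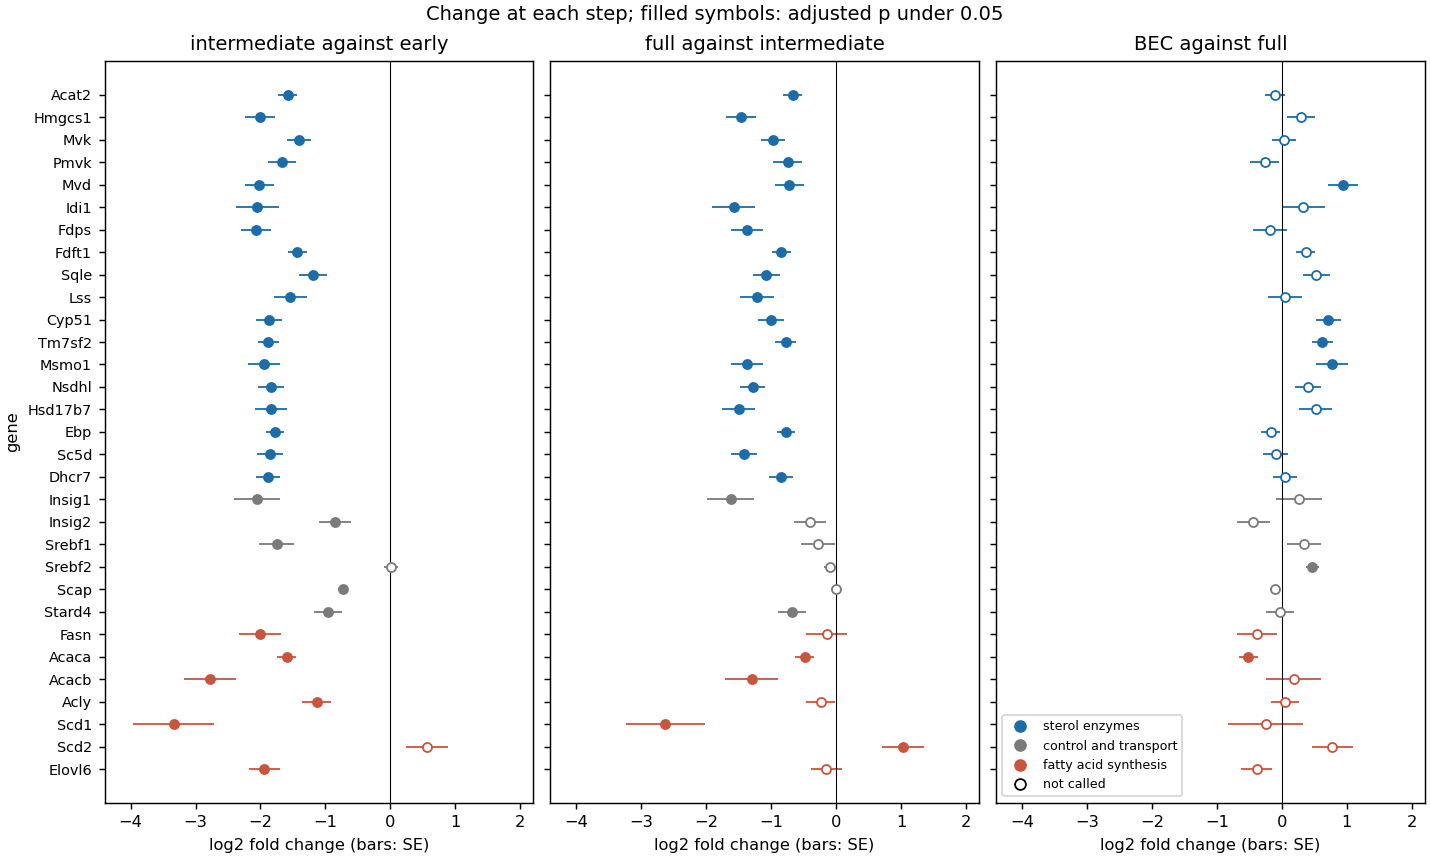
Log2 fold change with its standard error for each of the 31 genes at the 3 steps (panels), coloured by role, with filled symbols for an adjusted p under 0.05. All 18 sterol enzymes are filled and negative in the first 2 panels, and 4 are filled and positive in the third.

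Over the whole range, all 31 members differed among the 4 groups (edgeR's quasi-likelihood F test, adjusted p under 0.05), as did 75.6% of all genes tested. Full against early gave 29 members lower and 1 higher, where 32.1% of all genes were lower and 39.1% higher. BEC against early gave 29 lower and 2 higher, Srebf2 and Scd2, where 33.0% were lower and 40.0% higher. These comparisons share the early libraries with the first step. The sterol enzymes had medians of -2.75 in full and -2.68 in BEC against early, and the fatty acid genes -2.09 and -2.54. Of the change in log2 between early and BEC, intermediate had covered a median of 66.2% for sterol enzymes. These ran from 55.1% (Sc5d, a sterol desaturase) to 112% (Mvd). For fatty acid genes the median was 71.4%, from 23.8% (Scd2, which rose) to 85.8% (Acly). Full had covered medians of 110% for sterol enzymes and 84.9% for fatty acid genes.

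Of the 2 Scd desaturases among the members, Scd1 was the higher in early and Scd2 in full and BEC. Other desaturases were not ranked, and Fads2 stood at 285 CPM in full and 359 in BEC without a length correction. Per kilobase of exon (GENCODE M21 lengths), Scd1 ranked first of the 31 members in early at 1002 ± 449 CPM per kilobase and fell to 13.5 ± 10.5 in BEC (SD, n = 3). Scd2 ranked 30 in early at 16.2 ± 9.41 and ranked first in BEC at 84.5 ± 9.38 CPM per kilobase (SD, n = 3). Full against early, Scd1 fell by 5.97 (SE 0.71, edgeR adjusted p 4.13e-06) and Scd2 rose by 1.60 on the log2 scale (SE 0.33, edgeR adjusted p 0.000599). BEC against early, the changes were -6.22 (SE 0.72, edgeR adjusted p 2.80e-06) and 2.38 (SE 0.34, edgeR adjusted p 2.07e-05). The ratio of both genes within a library does not depend on scaling. The log2 ratio of Scd2 to Scd1 counts was -5.82 ± 0.36 in early, -1.81 ± 0.53 in intermediate, 2.01 ± 0.99 in full and, for BEC, 3.12 ± 1.21 (SD, n = 3). Early, intermediate and full did not overlap in this ratio, while full (0.98 to 2.95) and BEC (1.88 to 4.30) did. The summed macrophage markers (5 genes) rose alongside Scd2, from between 19.6 and 22.4 CPM in early to between 131 and 141 in BEC, most of it Csf1r, from 3.94 to 127 CPM. Mean levels in early and BEC were 1.70 and 3.69 CPM for Clec4f, 0.923 and 1.22 for Marco, 0.135 and 0.522 for Adgre1, and 14.0 and 3.46 for Cd68. The 4 proliferation markers summed to between 23.0 and 90.8 CPM in early, 8.66 and 18.9 in intermediate, 142 and 210 in full and 163 and 227 in BEC. The part of these genes in the Scd2 result was not tested.

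**Figure D4:**
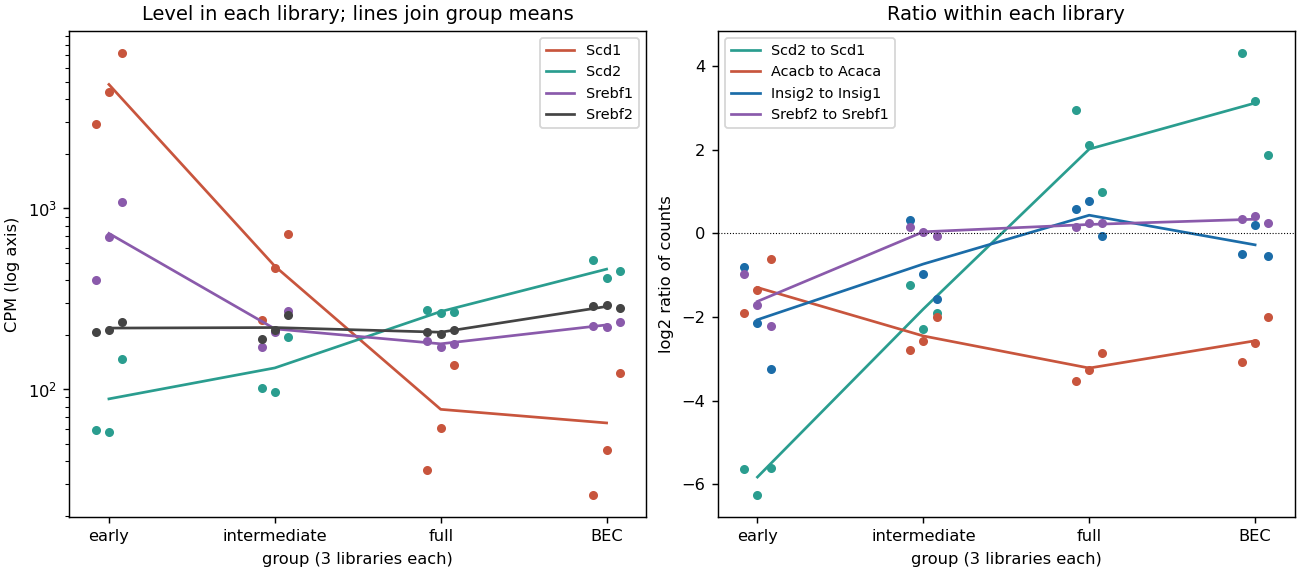
Left, CPM of Scd1, Scd2, Srebf1 and Srebf2 in each library on a log axis. Right, log2 ratio of counts within each library for 4 gene pairs, with points for libraries and lines joining group means; the ratio of Scd2 to Scd1 rises from -5.82 in early to 3.12 in BEC.

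Other pairs shifted less. Srebf2 to Srebf1 had a log2 count ratio of -1.63 ± 0.63 in early, 0.04 ± 0.11 in intermediate, 0.21 ± 0.06 in full and, for BEC, 0.34 ± 0.08 (SD, n = 3). Per kilobase, Srebf2 stood at 42.9 ± 3.01 CPM in early and 56.5 ± 0.869 in BEC, and Srebf1 at 169 ± 79.6 and 52.7 ± 1.96 (SD, n = 3). Early lay below all other libraries in that ratio, and intermediate lay below full. Insig2 to Insig1 had a log2 count ratio of -2.06 ± 1.23 in early, -0.73 ± 0.97 in intermediate, 0.43 ± 0.44 in full and -0.27 ± 0.41 in BEC, with overlap between neighbouring groups. For Acacb to Acaca the values were -1.29 ± 0.64, -2.45 ± 0.41, -3.22 ± 0.33 and -2.57 ± 0.54 (SD, n = 3), and no early library overlapped with any full library.

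Libraries of a group differed in a way that most members shared. Replicate 3 was the highest of the early libraries for 27 of the 31 members and the highest of the intermediate libraries for 29, against 32.7% and 33.2% of all genes tested. In full it was highest for 23 members (32.0% of all genes) and in BEC for 12 (36.3%), where replicate 1 was highest for 17. Insig2, Scap, Acaca and Fdps were the members whose highest early library was another one. In early, the summed fatty acid genes spanned 4755, 6970 and 11498 CPM, a wider range than the sterol enzymes given above. In BEC they spanned 1149, 1037 and 1225 CPM. Scd1 had its lowest level in replicate 1 and its highest in replicate 3 in each of the 4 groups. What the replicate numbers stand for is not given in the labels.

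**Figure D5:**
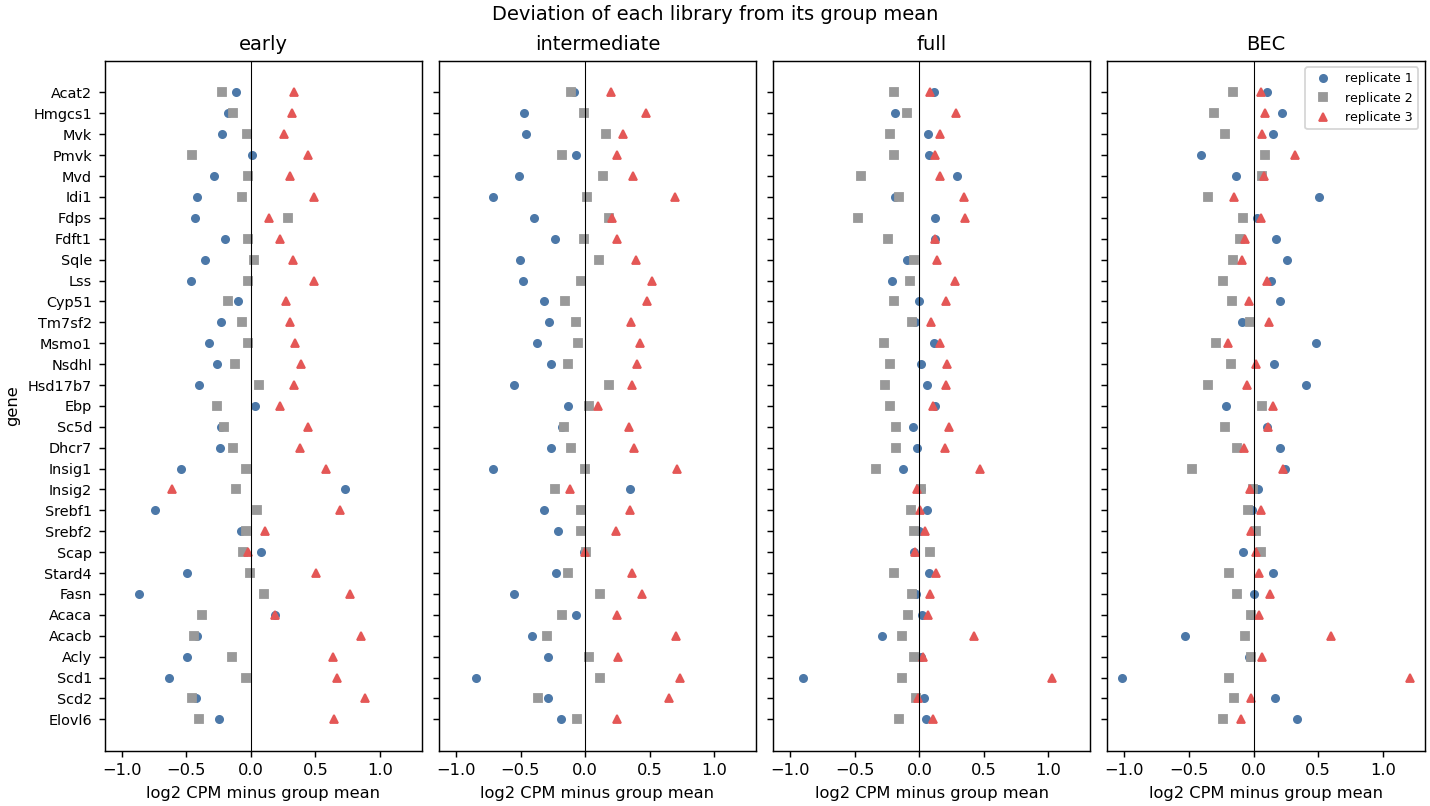
Deviation of each library from its group's mean log2 CPM (horizontal) for the 31 genes (vertical), by group and replicate. Replicate 3 (triangles) is highest for 27 genes in early and 29 in intermediate, and Insig2 in early shows the opposite order.

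Scaling changed sizes more than directions. With total counts in place of TMM, the median of all genes moved from 0.06 to 0.72 at the first step, from 0.01 to 0.21 at the second, and from 0.14 to 1.005 and 1.004 for full and BEC against early. The share of all calls that were higher moved with it, from 52.8% to 85.6% at the first step, from 51.2% to 72.6% at the second, from 54.9% to 81.8% for full and from 54.8% to 80.3% for BEC against early, and from 65.7% to 92.8% for the difference between both steps. Sterol enzymes then had medians of -1.19 and -0.83 at the first and second step, with 18 and 16 of 18 called lower and 0 higher, Pmvk and Mvd losing their calls at the second. The fatty acid medians were -1.28 and -0.03. Fatty acid genes near no change at the second step flipped sign without a call, Fasn to 0.06 and Elovl6 to 0.05. Srebf2, near no change on the TMM scale, was then called higher in intermediate against early (0.67, edgeR adjusted p 6.69e-05) and in full against early (0.79, edgeR adjusted p 9.58e-06), and Acly lost its call at the first step (-0.48, edgeR adjusted p 0.0727). Insig2 (-0.18), Scap (-0.07) and Stard4 (-0.30) also lost their calls at the first step on that scale. With median-of-ratios or upper-quartile factors, 18 of 18 sterol enzymes were called lower at both steps.

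Other genes of lipid metabolism were read from lists in the same fits, against shares over all genes of 25.7% lower and 28.7% higher at the first step, 19.8% and 20.8% at the second, and 33.0% and 40.0% in BEC against early. Of 8 genes that supply cytosolic acetyl-CoA and NADPH, 7 were called lower at the first step and 1 higher, and 5 lower and 1 higher at the second. BEC against early, Idh1, an NADP-dependent isocitrate dehydrogenase, fell most (-2.71 on the log2 scale, SE 0.14, edgeR adjusted p 8.49e-10) and G6pdx, the entry enzyme of the pentose phosphate pathway, rose (2.37, SE 0.20, edgeR adjusted p 8.82e-08). Of 13 elongation and desaturation genes 11 passed the filter, and 9 of them were lower at the first step. Elovl2, an elongase of polyunsaturated fatty acids, fell by 5.92 between early and BEC (SE 0.30, edgeR adjusted p 6.07e-10), while Scd3 had at most 2 counts in any early library and was at least 5.95-fold higher in BEC, against a floor of 3 counts per library. Triglyceride genes (8) had 5 lower at the first step and 7 at the second, and all 8 were lower in BEC than in early, Cidec, a lipid droplet protein, by the most (-4.67, SE 0.42, edgeR adjusted p 2.09e-07). Of 8 lipogenic regulators, 7 were lower at the first step and 5 at the second. Thrsp, a hepatic gene that responds to thyroid hormone and carbohydrate, went from 421 CPM in early to 5.95 CPM in BEC (-6.13, SE 0.87, edgeR adjusted p 2.14e-05).

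Of 9 further sterol and isoprenoid enzymes, 4 were lower and 1 higher at the first step, where 25.7% of all genes were lower and 28.7% higher. Lbr, a sterol reductase of the nuclear envelope, stood at 19.9 CPM in early, 19.8 in intermediate, 28.3 in full and 34.6 in BEC, and is named after its values were seen. Ggps1, which makes geranylgeranyl diphosphate in a branch away from cholesterol, rose by 1.47 on the log2 scale between early and BEC (SE 0.12, edgeR adjusted p 1.15e-07). Among 10 genes of SREBP processing and sterol-regulated degradation, 6 were lower and 2 higher at the first step. Pgrmc1, a membrane heme-binding protein that also binds Insig1 and Scap, fell by 3.35 between early and BEC (SE 0.11, edgeR adjusted p 9.46e-12), and Erlin2, which takes part in degrading HMG-CoA reductase, rose by 1.22 (SE 0.09, edgeR adjusted p 3.76e-08). For cholesterol uptake, efflux and esterification (12 genes), 9 were lower and 0 higher at the first step. Lrp1, a lipoprotein remnant receptor, fell by 3.54 between early and BEC (SE 0.18, edgeR adjusted p 6.89e-10). Soat1, a cholesterol esterification enzyme outside hepatocytes, had 0, 7 and 0 counts in the early libraries. In BEC it had 97, 90 and 126 counts, a mean of 4.87 CPM. Its early level lay near the floor of 3 counts, so no fold change is given.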

How the data were processed

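RNA-seq counts per gene were deposited by the authors, made with STAR 2.7.10b and featureCounts 2.0.1 on GRCm39 per the submitters' processing notes; the annotation, strand setting and treatment of reads with several matches are not given in the sources used here. Members with close copies in the genome, such as Acat2, Fdps, Scd1 and Scd2, are therefore uncertain where reads could be shared. A deposited table of normalized signal, gene counts divided by median-of-ratios factors, was only checked against the counts. Counts were tested with edgeR 4.0.16 (limma 3.58.1, R 4.3.3): filterByExpr kept 16210 of 53599 genes, libraries were scaled by TMM, 1 quasi-likelihood fit held all 12 libraries, and p-values were adjusted by Benjamini-Hochberg over all genes tested at 0.05. The code was tested on simulated data. Floors of 3 counts cover counting error only, while each SE comes from the quasi-likelihood fit and includes the spread between libraries.

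Members and lists were chosen with earlier results of these data known. Values in every library are given for 13 regulators and key enzymes, for members called in opposite directions at successive steps, and for the largest called change per role and step; from other lists, the largest rise and fall between BEC and early are named, except 1 gene that is not reported here. Alternatives were other scaling factors, other filters, a 2-fold minimum, DESeq2 1.42.0, fits of 2 groups only, the replicate number as a block and leaving out each library. Deviations of same-numbered libraries from their group means correlated across genes by 0.121 to 0.293 at the first step. The correlations were 0.137 to 0.322 at the second and 0.170 to 0.257 between BEC and full. From the data alone, the numbers may thus pair the libraries there. The main fit was by group without a block, so its p-values are unpaired. The block moved all calls from 8817 to 9274, from 6590 to 7300 and from 3445 to 4096 in these 3 comparisons. Promoters came from RefSeq (GRCm38.p6) and exon lengths from GENCODE M21 (GRCm38), matched by symbol, with no coordinates carried to GRCm39. Figures were drawn with matplotlib 3.10.9.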

Additional observations from a re-analysis of the deposited data

How the results depend on the processing

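Counts of called members stayed within 1.5 times of the reported ones with median-of-ratios factors, upper-quartile factors, a mean of at least 50 counts and DESeq2 (37 of 37 counts each). With total counts only, control genes gave 1 higher and 2 lower at the first step, 1 lower at the second, and 1 higher and 3 lower in full against early, and fatty acid genes 1 higher at the first step. For the difference between both steps that scaling gave 0 sterol enzymes, 1 fatty acid gene and 0 control genes lower, 1 control gene higher, and a control median of 0.0258. A test against a 2-fold change gave 2 control genes lower at the first step, 0 sterol enzymes, 0 control genes and 1 fatty acid gene lower and 0 higher at the second, 0 in each list between BEC and full, 3 control genes lower in full and 0 higher in BEC against early, and 0 in each list for the difference of steps. Without a filter, 1 fatty acid gene was higher at the first step, 1 control gene lower and 1 fatty acid gene higher between BEC and full, and 5 fatty acid genes had a larger fall at the first step. In fits of BEC and full alone, control genes gave 2 higher and 1 lower and fatty acid genes 1 higher and 2 lower.

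With the replicate block, which pairs libraries by number, 1 fatty acid gene was called higher at the first step and 1 between BEC and full, 7 sterol enzymes were higher in BEC than in full, and 5 fatty acid genes had a larger fall at the first step; no other count moved by over 1.5 times. For full and BEC against early, where the lowest correlations were 0.0960 and 0.0442, the libraries share only a number, and the block moved all calls from 11541 to 11848 and from 11842 to 12122.

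Directions reversed in the values below, which were not called on the TMM scale except for Scap in full and BEC against early (-0.73 and -0.84). Srebf2 at the first step was -0.0445 with median-of-ratios factors, -0.0444 with DESeq2 and -0.0041 with the mean filter, and at the second 0.12 with total counts and 0.0048 with upper-quartile factors. In full against early it was 0.79 with total counts and 0.10 with upper-quartile factors. Total counts also turned Fasn (0.0572) and Elovl6 (0.0520) at the second step and Scap in full (0.13) and BEC (0.0332) against early. The difference of steps turned for Mvk (0.0238), Sqle (0.34), Lss (0.13), Hsd17b7 (0.12), Sc5d (0.0196), Insig1 (0.0235), Insig2 (0.0280) and Stard4 (0.17). The cause was not tested.

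Leaving out each library gave 1 to 5 sterol enzymes higher between BEC and full, 0 to 1 fatty acid genes lower, 0 to 1 higher, 0 to 1 control genes lower, and a fatty acid median from -0.40 to 0.0671. At the first step 0 to 1 fatty acid genes were higher, and at the second 0 to 1 were higher and 1 to 3 lower, with 1 to 3 control genes lower. The difference of steps was called for 0 to 6 sterol enzymes, 1 to 2 control genes and 0 to 4 fatty acid genes. Signs changed between BEC and full for Acacb (-0.17 to 0.43), Dhcr7 (-0.0564 to 0.16), Fdps (-0.38 to 0.0035), Lss (-0.0494 to 0.20), Mvk (-0.0740 to 0.13), Sc5d (-0.18 to 0.0294), Scd1 (-1.09 to 0.43) and Stard4 (-0.13 to 0.0559). They changed at the second step for Fasn (-0.38 to 0.0839), Scap (-0.0396 to 0.0220) and Srebf2 (-0.18 to 0.0353), and at the first for Srebf2 (-0.12 to 0.11). For the difference of steps they changed for Hsd17b7 (-0.70 to 0.11), Idi1 (-1.29 to 0.10), Insig1 (-1.28 to 0.15), Insig2 (-0.83 to 0.0128), Lss (-0.91 to 0.10), Scd2 (-1.26 to 0.13), Sqle (-0.53 to 0.31), Srebf2 (-0.15 to 0.30) and Stard4 (-0.69 to 0.0125). Depth did not keep any member from being tested, while 3 libraries per group limit the precision.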
